A study of Homo sapiens with 21 samples.

Results

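JDP2 knockout cells were compared with ATF7 knockout cells, the genotypes of this THP1 series in which one or the other of 2 partner transcription factors was targeted. THP1 is a human acute myeloid leukaemia cell line of monocytic type. The 8 libraries compared, out of 19 in the deposited table of normalized counts, were all those of the 2 knockouts. They were 4 libraries labelled JDP2 KO and 4 labelled ATF7 KO, and each knockout was represented by 2 single-cell clones with 2 libraries per clone. All cells were kept in RPMI with fetal bovine serum, penicillin and streptomycin, no further agent is listed, and the knockouts were made by transfecting Lenti-CRISPRv2 constructs and picking clones by limited dilution. The labels give no guide sequence and no edited allele, and do not say whether the 2 libraries of a clone came from separate cultures, so the spread between them may be technical. Each knockout was thus modelled by 2 clones, and a feature that 1 founder cell happened to carry is present in every library of its clone. The other groups used below, as background, were 2 libraries of the KO Control, 2 of the shRNA Control and 1 of WT cells.

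ATF7 and JDP2 belong to the basic leucine zipper (bZIP) family, whose members bind DNA only as dimers. ATF7 is close to ATF2 and CREB5 and binds the cyclic AMP response element (CRE), while JDP2 is a small Jun-dimerizing protein without a transactivation domain that mostly acts as a repressor at the CRE and at the related TPA response element (TRE) bound by AP-1. Loss of either partner removes the ATF7/JDP2 heterodimer, and the direct comparison of the 2 knockouts therefore asks which transcripts depend on one partner more than on the other.

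No gene passed the test between the knockouts. Of 13430 genes with a mean of at least 10 normalized counts over the 8 libraries, 0 (0%) had an adjusted p (Benjamini-Hochberg) under 0.05 in limma on log2(normalized count + 1), and the smallest adjusted p was 0.998. At an unadjusted p under 0.05, limma marked 284 genes (2.11%), of which 153 (1.14%) were higher and 131 (0.975%) lower in JDP2 knockout. The edgeR quasi-likelihood test on the recovered reads called 0 genes, with 323 at an unadjusted p under 0.05, and DESeq2 called 9, with 536. Those 9 are described with their values further on. The differences between the knockouts in the following paragraphs are values of genes that limma did not call.

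The comparison could resolve large differences better than small ones. The median half-width of the 95% confidence interval of a gene's difference was 0.67 on the log2 scale, and it was under 1 (a 2-fold difference) for 10020 genes (74.6%). For 7547 genes (56.2%) the whole interval lay between -1 and 1, so a difference beyond 2-fold lay outside the interval of these genes. The intervals count each of the 4 libraries of a knockout as a separate sample, although these came from 2 clones. They describe these libraries and do not bound the difference that other clones of the knockouts would show. The median difference over all genes was -0.01, with quartiles of -0.23 and 0.20, and 591 genes (4.40%) differed by more than 1 in either direction. For 4204 genes (31.3%) the sign was the same in all 4 pairs of a JDP2 clone with an ATF7 clone.

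A second description, free of any model, is whether the libraries overlap. The 4 JDP2 libraries lay wholly above or wholly below the 4 ATF7 libraries for 318 genes (2.37% of those tested), 201 above (1.5%) and 117 below (0.871%). The difference was more than 1 for 49 of the 318. With so few libraries genes separate in this way by chance, and any of the 318 may be of this kind. Whether 318 exceeds the number that chance gives was not tested, so separation alone is not a call. With 1 library left out in turn, which by itself leaves fewer values to overlap, the genes wholly above numbered 250 to 577 (577 without ATF7 clone 2 replicate 2) and those wholly below 180 to 275 (275 without JDP2 clone 2 replicate 2).

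Libraries of different knockouts lay about as far apart as libraries of the same knockout. The median absolute difference over genes, on the log2 scale, was 0.306 to 0.873 between the libraries of a clone (median 0.420, 4 pairs). It was 0.213 to 0.775 between clones of a knockout (median 0.433, 8 pairs) and 0.235 to 0.876 between knockouts (median 0.388, 16 pairs). Each pair within a clone set replicate 1 against replicate 2, while the other kinds of pair also included same-numbered libraries. The kinds of pair were thus not alike in replicate number, and the part of that number in these distances was not tested. Averaged by clone, JDP2 clone 2 lay nearer to ATF7 clone 1 (0.214, with 6.83% of genes more than 2-fold apart) than to JDP2 clone 1 (0.308 and 9.96%), an order in which JDP2 clone 1 replicate 2, described below, takes part. Without averaging, the closest of all pairs was replicate 1 of JDP2 clone 1 with replicate 1 of JDP2 clone 2 (0.213), ahead of JDP2 clone 2 replicate 1 with ATF7 clone 1 replicate 1 (0.235). The 2 ATF7 clones stood 0.324 apart, with 12.5% of genes beyond 2-fold.

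**Figure D1:**
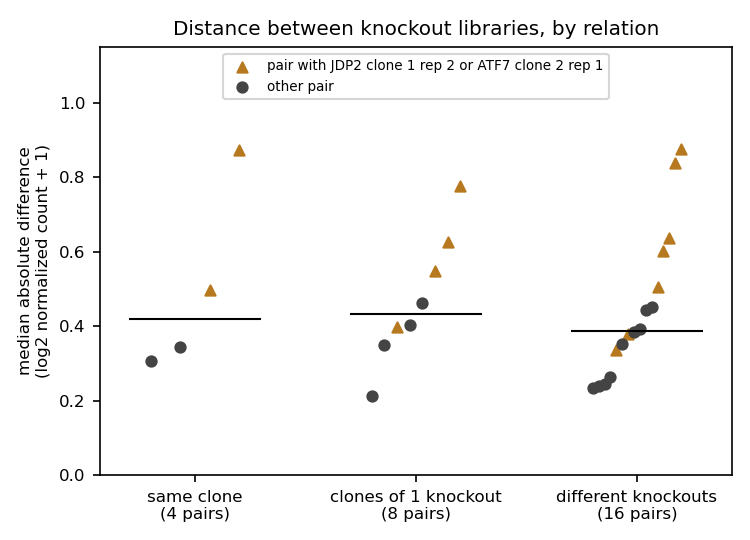
Median absolute difference between 2 libraries over 13430 genes (vertical axis, log2 normalized count + 1) for the 28 pairs of the 8 knockout libraries, grouped by relation; points are pairs, horizontal lines are medians, and triangles are pairs that include JDP2 clone 1 replicate 2 or ATF7 clone 2 replicate 1. The ranges of the 3 groups of pairs overlap, and the largest distances in each include one of the 2 libraries drawn as triangles.

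Recovered reads in genes ran from 28650200 to 60196400 per library, and 2 of the 8 stood apart. In JDP2 clone 1 replicate 2, 31.0% of genes differed over 2-fold from their median in the 8 libraries, its mitochondrially encoded share of reads was 0.971% against 2.33% to 4.95% in the other 7, and its ribosomal protein share was the highest at 9.26%. In ATF7 clone 2 replicate 1, 17.1% of genes did. The range in the other 6 was 3.52% to 9.92%. Leaving both out still gave 0 calls, with 390 genes at an unadjusted p under 0.05. All 12 markers of monocytic leukaemia cells were present, among them LYZ (lysozyme) at 12307 to 47070 normalized counts and SPI1, the myeloid master regulator PU.1, at 12519 to 45680. Of markers of other lineages, 3 of 7 lymphoid, 3 of 7 erythroid and megakaryocytic, 1 of 6 epithelial and 4 of 7 stromal or endothelial genes had a mean of at least 10. The defining markers CD3D, MS4A1, PF4 and LUM had a median of 0, while PAX5 and CD79A of the B lineage were measured in all 8 libraries. The summed lymphoid markers were 1319 to 1941 in ATF7 and 1551 to 2104 in JDP2 knockout libraries.

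The targeted genes came first. ATF7 (GRCh38.p14 chromosome 12, 53507856 to 53626382) was measured at 645, 511, 617 and 363 normalized counts in the ATF7 knockout libraries (clone 1, then clone 2) and at 299, 168, 307 and 306 in those of JDP2 knockout. The transcript was thus more abundant in the cells in which ATF7 itself was targeted, in every library, by 0.99 ± 0.27 (SE) on the log2 scale (adjusted p = 0.998, limma). The KO Control libraries, at 300 and 537, spanned the gap between the knockouts. JDP2 (chromosome 14, 75426943 to 75474107) was measured at 3158, 5693, 4652 and 5368 in JDP2 knockout and at 4817, 5042, 2636 and 5447 in ATF7 knockout. The groups overlapped, and the difference of 0.09 ± 0.28 (SE) changed sign when either of the 2 libraries that stood apart was left out. The gene-level count of a targeted gene did not separate the knockouts as labelled. It sums reads over the whole gene and does not show small edits, so it is no check of the protein. In the authors' deposited tables, ATF7 had a log2 fold change over the controls of 0.41 in ATF7 knockout and -0.44 in JDP2 knockout, and JDP2 0.14 and 0.21, with both comparisons using the same controls.

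The other bZIP genes gave no call either. Of 48 genes listed as ATF7, JDP2, their bZIP partners and IRF2BP relatives, 47 were tested, 0 were called, 27 differences were positive and 20 negative, and the median was 0.06 against -0.01 for all genes. The libraries did not overlap for 2 of the 47 (4.26%, against 2.37% of all genes), ATF7 and MAFK. MAFK, a small Maf protein that pairs with CNC factors such as NRF2, was measured at 3485 to 5309 in ATF7 and 5447 to 6968 in JDP2 knockout, a difference of 0.39 ± 0.20 (SE). JUN, the core AP-1 subunit and a JDP2 partner, was measured at 4039, 3509, 4971 and 6390 in ATF7 knockout and at 2252, 3908, 3098 and 3022 in JDP2 knockout. A single JDP2 library, clone 1 replicate 2, fell within the ATF7 range of JUN, and the difference was -0.61 ± 0.25 (SE). CREB5, the relative of ATF7, stood at 24.8, 19.5, 63.6 and 40.8 in ATF7 knockout and at 25.3, 11.2, 11.5 and 11.2 in JDP2 knockout, and its groups overlapped through JDP2 clone 1 replicate 1 alone. ATF2, the closest relative of ATF7, was at 1405 to 1726 and at 916 to 1478, a difference of -0.29 ± 0.21 (SE). JUND, another AP-1 subunit, was at 2801 and 3015 in ATF7 clone 1, at 5681 and 9193 in ATF7 clone 2, and at 2832, 10709, 2941 and 3860 in JDP2 knockout, where the libraries of clone 1 were the farthest apart. CEBPA, which drives myeloid differentiation, was at 29834 to 42854 in ATF7 and at 36614 to 93102 in JDP2 knockout, a difference of 0.64 ± 0.30 (SE) whose highest value came from JDP2 clone 1 replicate 2.

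**Figure D2:**
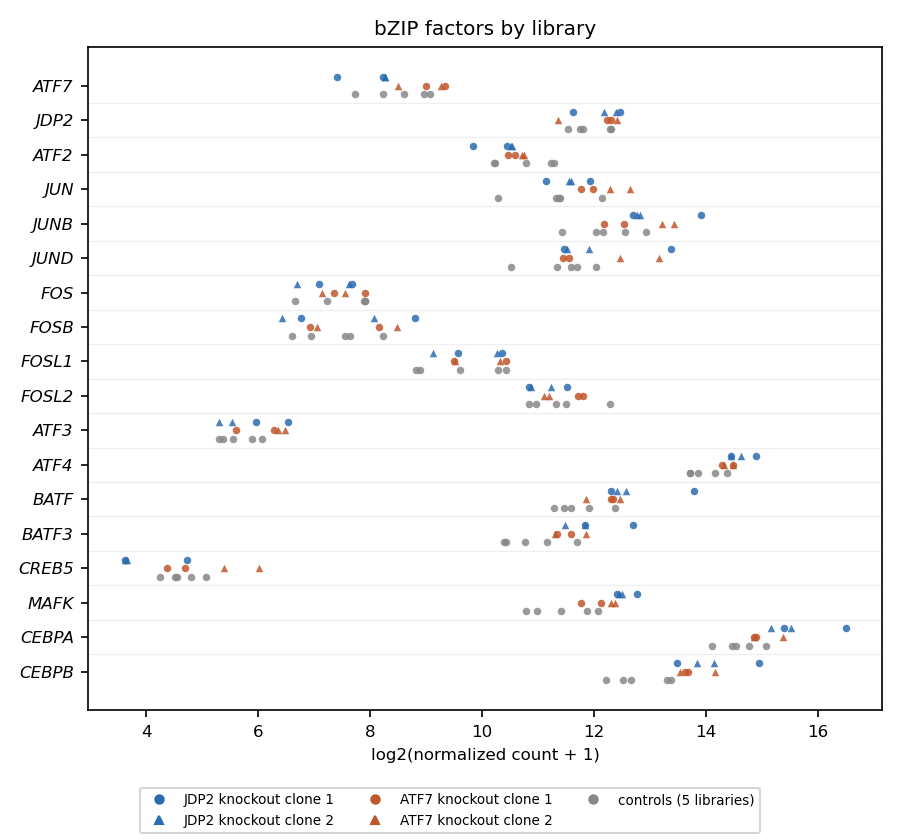
Log2(normalized count + 1) of 18 of the bZIP genes (horizontal axis) in the 4 JDP2 knockout, 4 ATF7 knockout and 5 control libraries; each point is a library, and circles and triangles mark clones 1 and 2. ATF7 separates the knockouts with the JDP2 libraries lower, MAFK with them higher, and the other genes drawn overlap.

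The genes with the largest positive differences, taken as the 12 largest with a mean of at least 50 in either knockout, the same sign in all 4 pairs of clones and no overlap between libraries, ran from 4.37 to 1.48 on the log2 scale. The next 2 by size were CHRM4 at 1.19 and TRHDE at 1.18. SERPINH1, which encodes the collagen chaperone HSP47, was at 200, 358, 51.2 and 67.3 normalized counts in JDP2 knockout and at 8.62, 6.51, 18.5 and 0 in ATF7 knockout. The 5 control libraries, at 35.8 to 46.9, lay between the knockouts, so that SERPINH1 was above all controls in JDP2 cells and below all of them in ATF7 cells. Its difference was 4.37 ± 0.94 (SE). Of the 24 genes named from both directions, SERPINH1 alone lay on opposite sides of the controls. The authors' deposited tables list it with a log2 fold change of 1.58 (adjusted p = 0.00411) in JDP2 knockout and -1.47 (adjusted p = 0.0747) in ATF7 knockout over the controls.

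NOD2, the intracellular receptor for bacterial muramyl dipeptide that signals to NF-kB, was at 310, 136, 245 and 195 in JDP2 knockout and at 67.9, 58.6, 72.9 and 33.6 in ATF7 knockout. Both clones of each knockout took part, with differences of 1.69 to 2.12 over the 4 pairs of clones. The control libraries, at 134 to 153, were above every ATF7 library and overlapped the JDP2 libraries. The difference was 1.90 ± 0.35 (SE, 95% interval 1.13 to 2.67), with an adjusted p of 0.998 in limma, 0.0324 with limma array weights and 0.00423 in DESeq2. Of 23 alternative settings these 2 alone called NOD2. The limma fit with array weights also put 12.8% of all genes at an unadjusted p under 0.05.

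GJA3, a gap junction connexin, stood at 259, 123, 118 and 101 in JDP2 knockout, 47.4, 32.5, 67.1 and 52.8 in ATF7 knockout, and 161 to 269 in the controls. All ATF7 libraries and 3 of 4 JDP2 libraries lay below all controls, and the authors' deposited table gives -1.83 (adjusted p = 1.39e-05) for ATF7 knockout and -0.49 (adjusted p = 0.306) for JDP2 knockout over the controls. PJA1, a ubiquitin ligase, was at 397, 750, 317 and 340 in JDP2 knockout, above every control (112 to 169). Its ATF7 values of 196, 189, 74.1 and 38.4 straddled them. AMPH, the endocytic protein amphiphysin, was at 65.3 to 90.9 in all JDP2 libraries, at 2.16, 22.8, 44.0 and 2.40 in ATF7 knockout and at 7.50 to 25.4 in the controls. For PJA1 and AMPH all JDP2 libraries lay above the controls, while ATF7 libraries lay on both sides of them.

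In DNAJC15, SLC46A1 and MBNL2, most of the difference came from 1 ATF7 clone. DNAJC15, a mitochondrial co-chaperone, was at 0 and 10.8 in ATF7 clone 1, but at 242 and 233 in ATF7 clone 2, close to the 289 to 362 of the JDP2 libraries and the 233 to 409 of the controls. SLC46A1, the proton-coupled folate transporter, was at 158 and 162 in ATF7 clone 1 and at 23.1 and 2.40 in ATF7 clone 2, against 182 to 240 in JDP2 knockout. Over the pairs of clones its difference was 0.38 and 0.51 against ATF7 clone 1 and 4.53 and 4.67 against clone 2. MBNL2, a splicing regulator, was at 55.0 and 113 in ATF7 clone 1, 18.5 and 1.20 in clone 2, 142 to 268 in JDP2 knockout and 155 to 392 in the controls. SLAIN1, a microtubule regulator, was at 156 to 339 in JDP2 knockout and at 56.1, 66.2, 41.7 and 2.40 in ATF7 knockout. FARP1 (1.96), CFAP53 (1.68), a cilium gene, and SERPINB10 (1.48), a serpin of haematopoietic cells, completed the 12. JDP2 libraries overlapped the controls in each of these 3.

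The 12 largest negative differences, chosen in the same way, ran from -3.51 to -1.11, with DUSP16 (-1.09) and TMEM154 (-1.05) next in size. GNA11, a G protein alpha subunit of the Gq family, was at 8.43, 31.7, 33.9 and 24.7 in JDP2 knockout, at 38.8 and 44.5 in ATF7 clone 1, and at 1571 and 1630 in ATF7 clone 2. The controls ranged from 221 to 1121, so JDP2 cells and ATF7 clone 1 both lay below every control and ATF7 clone 2 above them. Its difference of -3.51 ± 1.23 (SE) was -5.08 in DESeq2.

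CCDC116 was at 6.33, 9.32, 12.2 and 16.8 in JDP2 knockout and at 98.1, 157, 70.6 and 43.2 in ATF7 knockout, a difference of -2.86 ± 0.51 (SE). It had the smallest adjusted p of all genes in DESeq2, at 0.00131, although its controls (11.8 to 57.2) overlapped both knockouts. CCDC125 was the most even in ATF7 cells, at 148, 154, 148 and 150, and stood at 66.4, 41.0, 70.4 and 71.8 in JDP2 cells, below every control (96.7 to 214). ALCAM, the adhesion molecule CD166 that binds CD6, was at 222, 134, 154 and 144 in JDP2 knockout and at 336, 293, 386 and 396 in ATF7 knockout. Its controls of 303 to 442 overlapped the ATF7 libraries and lay above all JDP2 libraries. The differences were -1.29 ± 0.27 (SE) for CCDC125 and -1.12 ± 0.23 (SE) for ALCAM.

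A further 6 genes had JDP2 libraries below all controls and ATF7 libraries that overlapped the controls or, for GNA11, spanned them. Besides GNA11 they were ZNF264 and ZNF714, a pair of zinc finger genes on chromosome 19, PKIG, an inhibitor of protein kinase A, HLA-F, a non-classical MHC class I gene, and KDM7A, a histone demethylase. ZNF264 was at 2.11 to 22.4 in JDP2 knockout, 53.1 to 111 in ATF7 knockout and 42.4 to 70.7 in the controls. HLA-F was at 39.0, 39.2, 108 and 116 in JDP2 knockout and 132 to 264 in ATF7 knockout, with JDP2 clone 1 lower than JDP2 clone 2. F5 (coagulation factor V, -2.07), AATK (a kinase, -1.63) and MS4A6A (a myeloid membrane protein, -1.15) completed the 12, and both knockouts overlapped the controls in each. In all, of the 24 genes, the JDP2 libraries lay wholly above (3) or wholly below (8) the controls for 11 while the range of the ATF7 libraries overlapped that of the controls, in some of them with single ATF7 libraries on either side, as for GNA11, PJA1 and SLC46A1. The ATF7 libraries lay wholly below and the JDP2 range overlapped for 3, both groups were wholly outside for 1, and both ranges overlapped for 9. These genes were chosen because the knockouts separate, and the same counts over all tested genes were not worked out. The tally therefore does not show which knockout departs more from the controls.

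**Figure D3:**
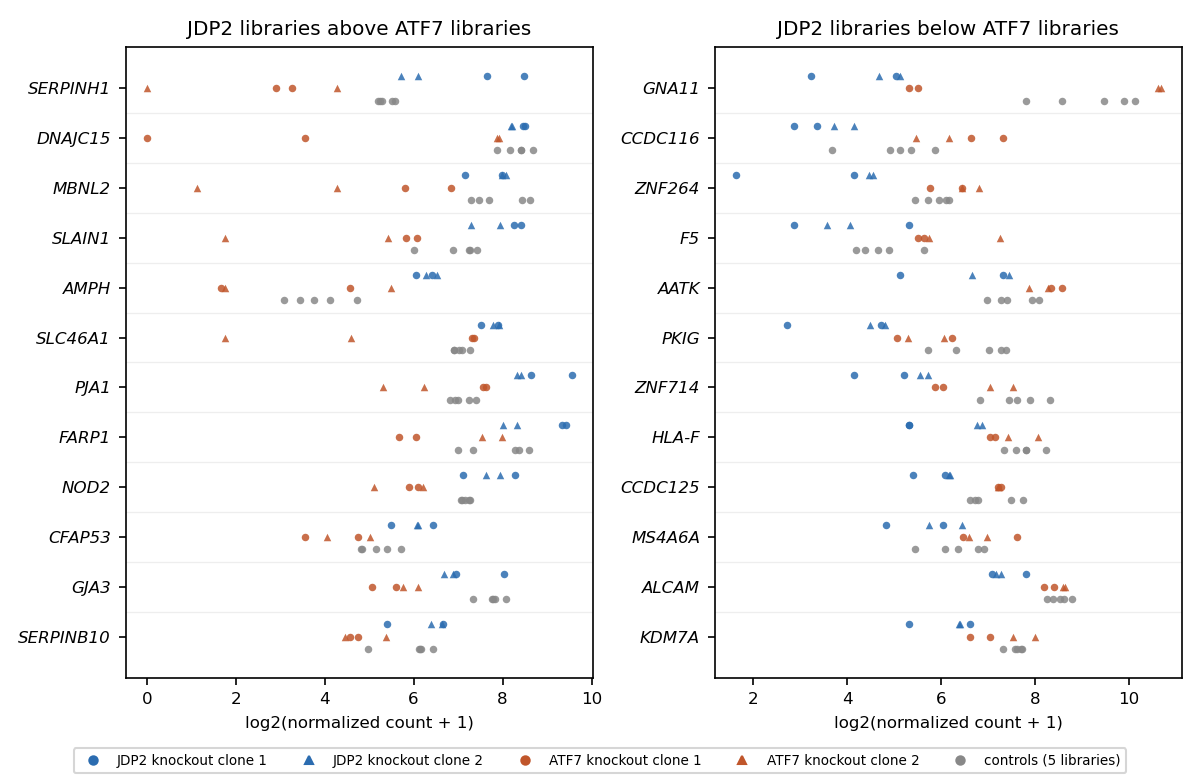
Log2(normalized count + 1) (horizontal axis) of the 12 genes with the largest positive and the 12 with the largest negative difference, in the JDP2 knockout, ATF7 knockout and 5 control libraries; each point is a library, and circles and triangles mark clones 1 and 2 of the knockouts. The separation of the knockouts was part of the choice of genes; the spread among the ATF7 clones, as for GNA11 (38.8 and 44.5 against 1571 and 1630), was not.

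DESeq2 on the recovered reads called 9 genes, 3 higher and 6 lower in JDP2 knockout, with adjusted p from 0.00131 to 0.0460. They were SERPINH1, NOD2, CCDC116, CCDC125, ALCAM and GNA11, described above, and CLEC5A, USP2 and SAMSN1, which lie outside the rule for named genes and are given after their values were seen. CLEC5A, an activating C-type lectin of myeloid cells, was at 874, 753, 828 and 721 in JDP2 knockout and at 1510, 1178, 2204 and 1690 in ATF7 knockout. It was lower in every JDP2 library, by 1.02 ± 0.22 (SE) in limma. USP2, a deubiquitinase, was at 452 to 638 in JDP2 and 287 to 341 in ATF7 knockout. SAMSN1, an adaptor of haematopoietic cells, was at 155 to 179 in JDP2 and 267 to 328 in ATF7 knockout. The libraries of the knockouts did not overlap in any of the 9.

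Single clones differed from their partner clone in some genes. In a fit with a group for each clone, limma called 18 genes (0.134%) between the ATF7 clones and 12 (0.0894%) between the JDP2 clones, with 890 (6.63%) and 315 (2.35%) at an unadjusted p under 0.05. These counts depend on single libraries. For the ATF7 clones the count was 0 without ATF7 clone 1 replicate 1 or clone 2 replicate 2, 3 and 4 without the other ATF7 libraries, and 65 and 75 without JDP2 clone 1 replicate 1 or 2. For the JDP2 clones it was 21 without JDP2 clone 1 replicate 1 and 6 without JDP2 clone 2 replicate 2. RENBP, a renin-binding epimerase, was at 4964 and 6831 in ATF7 clone 1 and at 46.3 and 25.2 in ATF7 clone 2, against 2261 to 9074 in JDP2 knockout (clone difference -7.37 ± 0.65 SE, adjusted p = 0.0118). POU2F2, the B-lineage and myeloid octamer factor OCT2, was at 14816 and 9573 in ATF7 clone 1 and at 781 and 592 in clone 2 (-4.13 ± 0.36 SE, adjusted p = 0.0118). CERS1, a ceramide synthase, rose from 6.47 and 15.2 to 716 and 951 between the same clones (6.23 ± 0.59 SE, adjusted p = 0.0124).

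LRP3, a receptor of the LDL receptor family, differed between the clones of both knockouts in opposite directions. It was at 235 and 348 in ATF7 clone 1, 15304 and 27665 in ATF7 clone 2, 18170 and 64300 in JDP2 clone 1, and 139 and 205 in JDP2 clone 2. High and low clones were thus paired across the knockouts. PTPRF, a receptor tyrosine phosphatase, was at 32.7 and 37.3 in JDP2 clone 1 and at 1108 and 1337 in clone 2 (5.08 ± 0.26 SE, adjusted p = 0.000542), and at 840 to 1584 in ATF7 knockout. POU4F1, a neural POU factor that is also expressed in some leukaemias, was at 2012 and 2230 in JDP2 clone 1, at 1.28 and 0 in JDP2 clone 2, and at 1829 to 3141 in ATF7 knockout (adjusted p = 9.74e-05). PSTPIP2, a cytoskeletal adaptor of macrophages, was at 4.22 and 5.59 in JDP2 clone 1 and at 312 and 384 in clone 2, and it also divided the ATF7 clones, at 2.16 and 2.17 against 182 and 139. PTPRF and POU4F1 were the 2 genes called between the knockouts in the fit with a group for each clone, and each is a gene of 1 JDP2 clone.

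Genes of the distal part of chromosome 13 moved together in 1 clone. Of the 24 named genes 5 lie on chromosome 13 (DNAJC15, MBNL2, SLAIN1, FARP1 and GJA3), to which 224 of the 13430 tested genes were assigned. MBNL2, SLAIN1 and FARP1 start at or beyond position 45954465 of GRCh38.p14, a boundary set after the values were seen. DNAJC15 and GJA3 start before it and are not part of the region. In ATF7 clone 2, 111 of the 124 tested genes of that region (89.5%) were lower than in ATF7 clone 1, against 41.9% of all genes, with a median difference of -0.70. The median level of the region relative to all genes was -0.59 and -0.67 in the libraries of ATF7 clone 2, and -0.15 to 0.28 in the other 17 libraries of the series. Against ATF7 clone 1 the JDP2 libraries had a median difference of -0.14 there, and against ATF7 clone 2 one of 0.60. FARP1 did not follow the region: it was at 65.8 and 49.9 in ATF7 clone 1 and at 252 and 185 in ATF7 clone 2. The JDP2 libraries lay wholly above the ATF7 libraries for 5 of the 124 genes (4.03%, against 1.5% of all genes) and wholly below for 0 (0.871% of all genes). The part of this regional level in the differences between the knockouts was not tested.

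**Figure D4:**
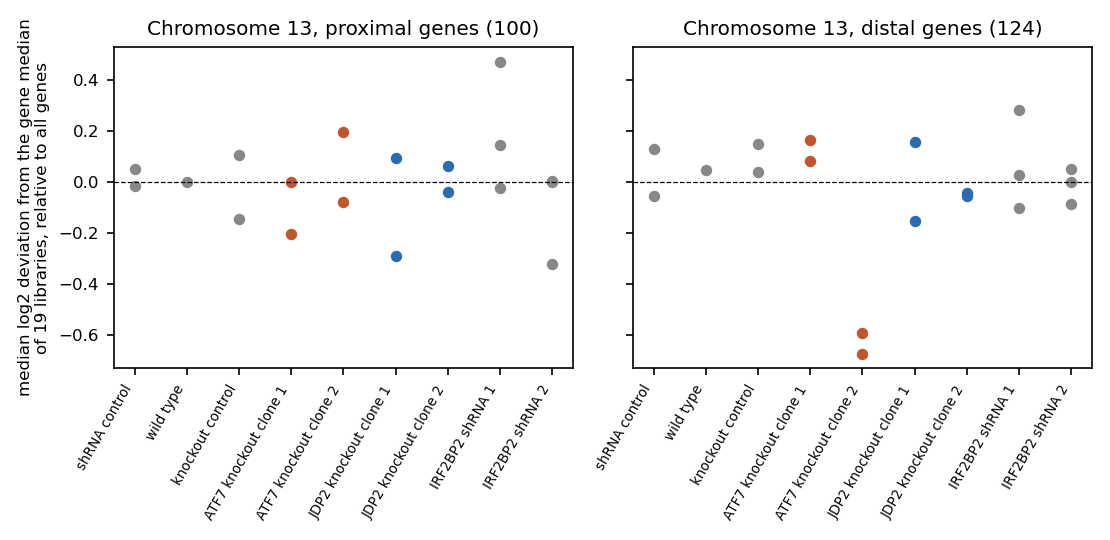
Median log2 deviation of chromosome 13 genes from each gene's median over 19 libraries, relative to that of all genes (vertical axis), for the proximal (100 genes, left) and distal (124 genes, right) part; each point is a library, by group. Both libraries of ATF7 clone 2 lie at -0.59 and -0.67 for the distal genes, below the other 17 libraries at -0.15 to 0.28.

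Gene lists were described by counts and medians beside those of all genes tested, 0 called, 2.37% not overlapping and a median of -0.01. No member was called in any of 32 lists. In innate immune pathways, the median was -0.14 for 25 Toll-like receptor and inflammasome genes, with NOD2 wholly above and IRAK4, the kinase next to the Toll-like receptors, wholly below (274 to 310 in JDP2 against 322 to 402 in ATF7 knockout). It was 0.10 for 27 NF-kB genes, -0.31 for 16 cytokines and chemokines (-0.04 with quantile normalization and -0.08 without the 2 libraries that stood apart), -0.03 for 44 interferon-stimulated genes and -0.07 for 28 immediate early genes. TGFB1, the most abundant cytokine listed, was at 24512 to 38958 in ATF7 and 27559 to 60516 in JDP2 knockout, a difference of 0.31 ± 0.29 (SE). BST2, the most abundant interferon-stimulated gene, was at 17670 and 20226 in ATF7 clone 1 and 4068 and 9257 in ATF7 clone 2, and at 4054 to 12265 in JDP2 knockout, so the groups overlapped.

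Of 48 monocyte and macrophage differentiation genes the median was -0.05, and 1 was wholly below, FCGR2A, an activating Fc receptor (245, 248, 374 and 367 in JDP2 against 417, 666, 428 and 599 in ATF7 knockout). The medians were 0.15 for 14 primary granule genes, -0.10 for 30 leukaemia stem and progenitor genes, 0.02 for 17 MHC class I and peptide loading genes and -0.58 for 4 MHC class II genes, which became -0.30 without JDP2 clone 1 replicate 2. CD74, the invariant chain, was at 1141 and 1714 in ATF7 clone 1, at 62.5 and 7.20 in ATF7 clone 2 and at 542 to 1304 in JDP2 knockout. The granule protease PRTN3 was at 29588 to 92401 in ATF7 and 34505 to 206592 in JDP2 knockout.

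In stress and metabolic lists, the medians were -0.03 for 41 integrated stress response genes, 0.05 for 30 unfolded protein response genes, 0.12 for 26 NRF2 and ferritin genes, 0.21 for 34 cholesterol and fatty acid synthesis genes (0.03 without the 2 libraries that stood apart) and -0.12 for 33 glycolysis and hypoxia genes. HMGCS1, an early enzyme of cholesterol synthesis, was at 798 to 1300 in JDP2 and 631 to 782 in ATF7 knockout. SRXN1, the NRF2 target sulfiredoxin, was at 321 to 393 and 226 to 298. SDF2L1, an endoplasmic reticulum chaperone cofactor, was at 4763 to 11032 and 2835 to 3857. For these 3 every JDP2 library was the higher. The medians were 0.08 for 15 heme synthesis genes and -0.05 for 6 metallothionein genes. Among the latter MT1G was at 94.9 and 91.1 in ATF7 clone 1, 1571 and 2672 in ATF7 clone 2 and 3971, 461, 4946 and 3784 in JDP2 knockout.

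Of growth and survival lists, the medians were 0.10 for 42 MYC and ribosome biogenesis genes, 0.00 for 55 proliferation genes, 0.09 for 34 p53 targets and CDK inhibitors and 0.05 for 33 apoptosis regulators. MYC was at 24655, 24295, 36518 and 37744 in ATF7 and 35757, 29465, 33952 and 32023 in JDP2 knockout. BID (5290 to 7256 against 3637 to 5154), which links caspase-8 to mitochondria, and BCL2L1 (3519 to 7179 against 2689 to 3491), which encodes BCL-XL, were wholly above in JDP2 knockout. The median was 0.00 for 41 lysosome genes, with MAN2B1 wholly below (10795 to 14331 against 15147 to 24118).

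In several lists, JDP2 clone 1 replicate 2 moved the median. All 13 mitochondrially encoded genes were lower in JDP2 knockout, with a median of -0.34 that became -0.03 without that library. MT-ND4 was at 308979, 92203, 326562 and 353433 in JDP2 knockout, and without the value of 92203 the JDP2 range lies inside the ATF7 range of 244108 to 430125. The median of 76 nuclear oxidative phosphorylation genes went from 0.22 to -0.04, that of 78 cytosolic ribosomal protein genes from 0.15 to -0.09, that of the primary granule genes from 0.15 to -0.07 and that of 33 replication-dependent histone genes from 0.06 to -0.41 (0.57 with quantile normalization). The direction of these 4 lists thus reversed. Without the same library the medians were larger in size for the MYC and ribosome biogenesis (0.20), unfolded protein response (0.17), monocyte and macrophage (-0.13) and lymphoid (-0.32) lists. Among single members of which all JDP2 libraries were higher were NDUFV2, a complex I subunit (4715 to 7563 against 3697 to 4706), RRS1 of ribosome assembly (9129 to 13023 against 6432 to 9111) and the phosphatase gene DUSP2 (1169 to 1590 against 846 to 1144). The 61 zinc finger genes of chromosome 19 had a median of -0.32, or -0.26 without that library and -0.11 without both libraries that stood apart, and 51 of 61 were lower in JDP2 knockout. Wholly below were 4 of them, ZNF264, ZNF506, ZNF699 and ZNF714, or 6.56% of the list, against 0.871% of all genes. Markers of other cell types had medians of -0.18 for 8 lymphoid, -0.02 for 5 erythroid and megakaryocytic, -0.49 for 4 epithelial and -0.39 for 8 stromal and endothelial genes.

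**Figure D5:**
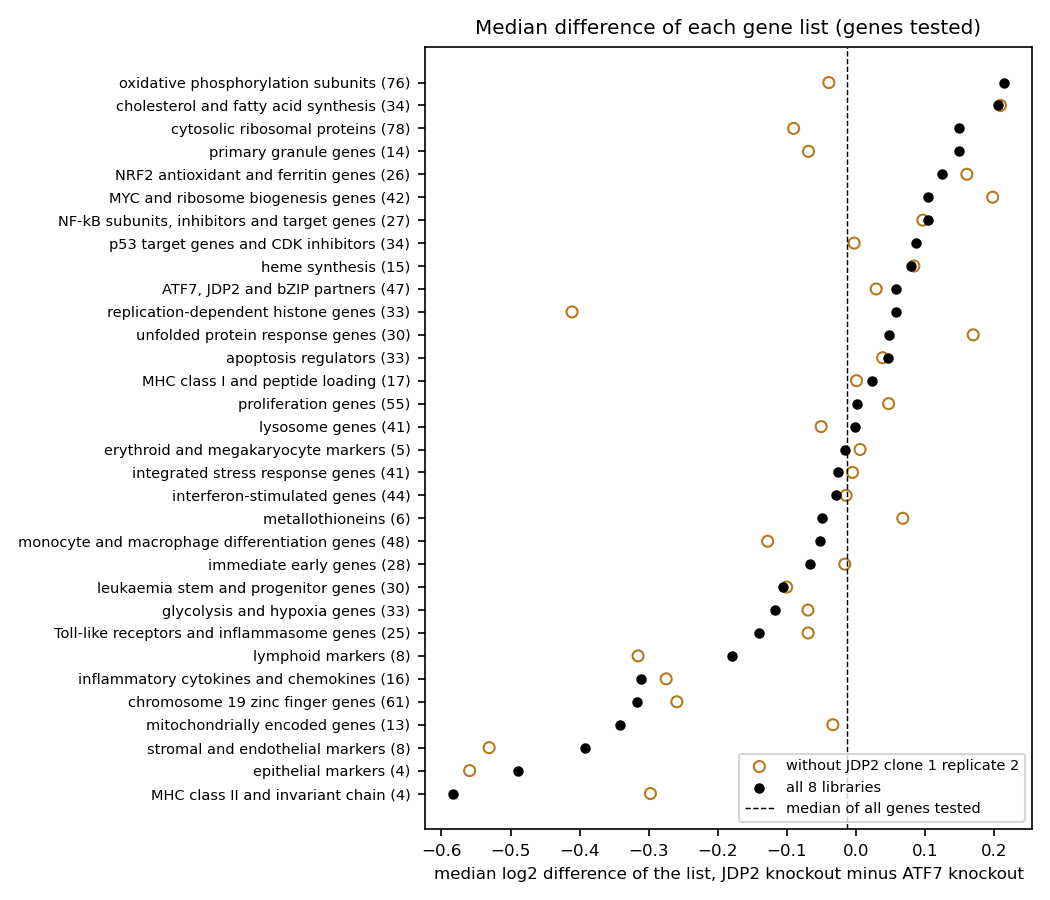
Median log2 difference, JDP2 minus ATF7 knockout (horizontal axis), of the tested members of 32 gene lists (number tested in brackets), with all 8 libraries (filled) and without JDP2 clone 1 replicate 2 (open); the dashed line is the median of all genes tested. Medians of oxidative phosphorylation, ribosomal protein, primary granule and histone genes change sign without that library, and the mitochondrially encoded median moves from -0.34 to -0.03.

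The binding motifs of the factors were then looked for in the promoters. Promoters of 300 bases (250 before and 50 after the transcription start, RefSeq, GRCh38.p14) were found for 10790 of the 13430 tested genes. The CRE, TGACGTCA, which is its own reverse complement, occurred in 3.68% of 163 promoters of genes with all JDP2 libraries above, in 0.98% of 102 with all below and in 3.18% of all tested. The TRE pattern, TGANTCA on either strand, which cannot overlap a CRE, occurred in 5.52%, 3.92% and 4.57%. It leaves the middle base open and is wider than the usual TGA(C/G)TCA of AP-1, so the shares also count TGAATCA and TGATTCA. Over all 27305 promoters in the table the shares were 1.98% and 7.76%. A single promoter was kept per gene, and other transcription starts of a gene were not scanned. The scanned promoters of ATF7 and JDP2 held neither motif, and that of JDP2 (chr14:75427474-75427773) lies inside the gene positions given above. Of the 24 named genes, all but SERPINB10 had a promoter in the table, and among these DNAJC15 and MBNL2 held a match. That of DNAJC15, TGATTCA, is not of the TGA(C/G)TCA form, while both of MBNL2 are. The windows below, chosen after the values were seen, show the motif in capitals with 10 bases on each side, 5′ to 3′ on the gene's strand, for these 2 genes and for all genes with a CRE whose libraries did not overlap.
MBNL2 TRE, chr13:97141738-97141764, plus strand: gagcagagaaTGACTCAcattctctgt
MBNL2 TRE, chr13:97141759-97141785, plus strand: ctctgtgacaTGAGTCActcccatgca
DNAJC15 TRE, chr13:43023384-43023410, plus strand: cctgtgagtgTGATTCAagaacgtccc
AIMP2 CRE, chr7:6009193-6009220, plus strand: gtcgacttcgTGACGTCAaagagcctgg
CHPF CRE, chr2:219544014-219544041, minus strand: cctctgctccTGACGTCActcagggcgc
CHPF CRE, chr2:219543969-219543996, minus strand: gggctgcttcTGACGTCAcatgggacgc
ESS2 CRE, chr22:19144770-19144797, minus strand: gcatttatagTGACGTCAgaacggagcg
HS3ST2 CRE, chr16:22814106-22814133, plus strand: cccgcgcggcTGACGTCAggccactcct
PITPNA CRE, chr17:1562835-1562862, minus strand: cggccccgcgTGACGTCAgcgcgcaccg
ZNF511 CRE, chr10:133308868-133308895, plus strand: gaagtgagcgTGACGTCAcgtccggctc
ESYT2 CRE, chr7:158829618-158829645, minus strand: ccccgcgcgaTGACGTCAgtatccaccc

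All 7 genes with these CREs had log2 differences under 1 in size. CHPF, a chondroitin synthesis factor with 2 matches, had 6395 ± 2297 normalized counts in JDP2 knockout and 3641 ± 279 in ATF7 knockout (mean ± SD, n = 4), a log2 difference of 0.75 ± 0.24 (SE). AIMP2, a scaffold of the aminoacyl-tRNA synthetase complex, had 5202 ± 992 and 3709 ± 424. ESYT2, a membrane tether and the only one of the 7 genes with JDP2 libraries below, had 8308 ± 1591 and 9935 ± 533, a log2 difference of -0.28 ± 0.20 (SE). A match of letters describes the sequence and does not show binding.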

How the data were processed

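The 8 knockout libraries and 5 control libraries of THP1 cells were read from the deposited table of DESeq2-normalized counts, a signal per gene that the authors made by dividing gene read counts by 1 size factor per library. The submitters' processing notes name featureCounts, DESeq2 and hg38. The aligner, the annotation and the use of strand are unknown here, so reads of overlapping or near-identical genes (such as zinc finger and HLA genes) may be misassigned. Values were whole multiples of a step for 100% of entries (tolerance 0.01), and reads were recovered from them for the count tests. In their deposited tables of each knockout against controls, the authors give per gene a log2 fold change with its error, a p-value before and after adjustment, and a Wald score, which was not used. Of 21 labelled samples, 2 marked as low quality were not analysed here.

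Genes with a mean of at least 10 were tested with limma 3.58.1 (moderated statistics with a trend, R 4.3.3) on log2(normalized count + 1), which understates differences of low genes. The 2 clones of a knockout formed 1 group, and all p-values are two-sided. The alternatives were edgeR 4.0.16, DESeq2 1.42.0, other filters, pseudocounts (0.5 and 5), scalings, blocks and left-out libraries. The scripts were tested on simulated data. The named genes were the targets, the 12 largest differences in each direction under the conditions given above, the 2 largest clone differences in each direction, and the 2 most abundant members of each of 32 lists, of which part is printed. Some genes are not reported here. Members of the bZIP list and genes whose libraries did not overlap were also named. Members and lists were chosen with earlier results of these data known. Same-numbered libraries deviated together in 2 of 6 pairs of clones only (correlations from -0.40 to 0.58), so the numbers were not treated as pairs in the main fit. By median absolute log2 difference, the closest libraries were nonetheless same-numbered ones of different clones (0.213, 0.235 and 0.239), below every pair within a clone (0.306 or more). Same-numbered pairs with JDP2 clone 1 replicate 2 lay at 0.602 to 0.637. Any effect shared by replicate number stays in the error of the main fit. The lowest chi-square per gene between libraries was 58.0, for ATF7 clone 1 replicate 1 with JDP2 clone 1 replicate 1, and the lowest within a clone was 87.7. These values do not show that libraries of a clone are independent. Each library was counted as a separate sample, so the errors of a knockout rest on 4 libraries from 2 clones. Positions and promoters are from RefSeq (GRCh38.p14).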

Additional observations from a re-analysis of the deposited data

Results flagged for a closer look

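Among the genes named above or taken by the same rule, 278 sets of 4 values (a gene in a knockout) were examined for 1 library far from the other 3, and 26 were marked, where chance marks about 1 in 20. The marked library was JDP2 clone 1 replicate 2 in 13 of them. It was low, against the range of the other JDP2 libraries in brackets, for MBNL2 at 142 normalized counts (251 to 268), PKIG at 5.59 (21.3 to 26.9), CCDC125 at 41.0 (66.4 to 71.8), ATF7 at 168 (299 to 307), ATF2 at 916 (1395 to 1478), ATF6B at 2008 (5690 to 6310), BACH2 at 29.8 (58.3 to 60.2), MT-ND4 at 92203 (308979 to 353433), TKT at 44487 (58602 to 60878), GSTP1 at 17877 (44512 to 51088) and MT1G at 461 (3784 to 4946). The same library was high for JUNB at 15524 (6665 to 7264) and BLVRB at 19880 (6257 to 7328).

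JDP2 clone 1 replicate 1 was low for ZNF264 at 2.11 (16.8 to 22.4) and high for CREB5 at 25.3 (11.2 to 11.5). JDP2 clone 2 replicate 2 was low for ATP5F1B, the catalytic subunit of ATP synthase, at 28632 (32498 to 32935).

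Among the ATF7 libraries, clone 2 replicate 2 was low for SLAIN1 at 2.40 (41.7 to 66.2) and high for CEBPA at 42854 (29834 to 30625), ATP5F1B at 31954 (27655 to 27819), BOP1 at 28981 (19475 to 20761) and MT2A at 16186 (8401 to 9392). ATF7 clone 2 replicate 1 was high for F5 at 150 (44.2 to 52.8) and BATF2 at 42.8 (31.2 to 31.5) and low for JDP2 at 2636 (4817 to 5447). ATF7 clone 1 replicate 2 was low for ATF5, a stress-response bZIP factor, at 1027 (1947 to 2025), and replicate 1 of that clone was high for SRF at 11135 (8728 to 9045).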

How the results depend on the processing

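The count of 0 called genes between the knockouts, in both directions, was the same under the other pseudocounts, filters, TMM and quantile scaling, edgeR, the clone as a correlated block, clone means, the knockout control as a further group, each left-out library and the removal of both libraries that stood apart (chosen after seeing the data). The correlated block had a consensus correlation of -0.189 between libraries of 1 clone. With this negative value the block did not make the limma test stricter, and 505 genes had an unadjusted p under 0.05 against 284. Array weights gave 1 higher gene (NOD2), DESeq2 3 higher and 6 lower, and a group for each clone 2 lower. With array weights in limma, 1720 genes (12.8%) had an unadjusted p under 0.05, against 284 in the main fit. The replicate number as a block gave 0 calls, with 620 genes at an unadjusted p under 0.05 against 284. That block raised the count between the ATF7 clones from 18 to 139 and between the JDP2 clones from 12 to 23. DESeq2 gave 247 and 51, and array weights 36 and 6. Without a filter the ATF7 clones gave 9, and without the 2 libraries that stood apart 38. Leaving out single libraries gave 0 to 75 and 6 to 21. The genes wholly above numbered 553 and those wholly below 469 without the 2 libraries, and 250 to 577 and 180 to 275 with single libraries left out, where fewer values are left to overlap. No sign changed among the 24 genes with the largest differences. The difference of JDP2 reversed to -0.051 with quantile scaling, to -0.058 with array weights and to -0.25 without both libraries, and ran from -0.15 to 0.27 with single libraries left out, where it was -0.15 without ATF7 clone 2 replicate 1 and -0.01 without JDP2 clone 1 replicate 2. The causes of the other shifts were not tested. With 4 libraries and 2 clones a knockout, a difference under the median half-width of 0.67 was not resolved for a typical gene, even without adjustment. The adjusted test also left larger differences uncalled, such as 1.90 ± 0.35 (SE) for NOD2 (adjusted p = 0.998, limma).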

Other observations

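Genes of chromosome 19 also stood apart by library. Relative to all genes, the median level of the 1033 tested genes of that chromosome was 0.74 in JDP2 clone 1 replicate 2 on the log2 scale, against -0.04 in replicate 1 of the same clone and -0.14 and 0.00 in JDP2 clone 2. It was 0.14 and 0.43 in ATF7 clone 2 and -0.17 and -0.01 in ATF7 clone 1. The zinc finger genes of the same chromosome were lower in JDP2 knockout in 51 of 61 cases, opposite to the direction of the chromosome's median in JDP2 clone 1 replicate 2.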
